A study of Mus musculus with 4 samples.

Results

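The genes described here are the integrins and the numbered cadherins of mouse embryonic stem cells before and after degradation of RPB3, a core subunit of RNA polymerase II. They were taken by symbol: Itga or Itgb followed by a digit, Itgad, Itgae, Itgal, Itgam, Itgav or Itgax, or Cdh followed by a number. The rule found 51 of the 30282 genes in the deposited table, of which 18 encode integrin alpha chains, 9 integrin beta chains and 21 cadherins. The other 3, Itgb1bp1, Itgb1bp2 and Itgb3bp, are named after an integrin tail that their proteins bind, and are no integrins themselves. All libraries were made from poly(A) RNA of V6.5 cells, a mouse embryonic stem cell line, that carried RPB3 fused to mAID, a short auxin-inducible degron, and GFP, and that grew with inhibitors of GSK3 and MEK. The untreated group (2 libraries) received doxycycline at 1 µg/ml for 12 h, which induces TIR1, the plant receptor subunit through which auxin marks the degron for destruction. The IAA group (2 libraries) received the same doxycycline and then the auxin indole-3-acetic acid (IAA) at 500 µM (12 h in the sample labels, although 1 protocol sentence speaks of 1 h). The labels do not say whether the degron line is 1 clone or whether replicates came from separate cultures, so the spread behind each p-value may be only technical.

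Integrins are cell surface receptors made of 1 alpha and 1 beta chain. The alpha chain largely sets which ligand is bound, such as fibronectin, laminin or collagen, and the beta tail recruits talin and kindlin, which link the receptor to actin. Classical cadherins bind the same cadherin on a neighbouring cell and are tied to actin through beta-catenin and alpha-catenin. In embryonic stem cells E-cadherin (Cdh1) holds colonies together, and integrins with the beta1 chain hold them to fibronectin and laminin.

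Library depth, as whole reads worked back from the table, ranged from 8724737 to 9194432. Values are normalised read counts, as the authors deposited them, each library's reads having been scaled by a single size factor and rounded. Fold changes are IAA over untreated, taken as log2(value + 1), so those of low genes come out too small. A gene was called lower or higher at an adjusted p under 0.05 in limma, a linear model with spread shared across genes, fitted over the 14928 genes with a mean of at least 10. The median log2 fold change of all genes tested was -0.11 at the deposited scaling and -0.01 with median-of-ratios factors, which place the typical gene near 0, so each count below is also given with those factors where it moved. The embryonic stem cell markers fixed for the check (10 of 10 in the table, Pou5f1, Sox2 and Nanog among them) summed to 61069 and 62483 normalised read counts without IAA and to 63855 and 61745 with it. Within that sum 5 of the 10 markers were lower (Pou5f1 -0.24, Dppa5a -0.36, Dppa4 -0.36, Tdgf1 -0.27 and Zfp42 -0.15). Another 3 were higher (Klf4 0.52, Nanog 0.33 and Tfcp2l1 0.27). Over all genes tested, 28.9% were lower and 11.1% higher. Median-of-ratios factors gave 4 lower and 5 higher markers, where all genes had 20.5% and 20.4%. Polr2c, the gene of RPB3 itself, stood at 2726 and 2885 without and at 3242 and 3158 with IAA (log2 fold change 0.19, adjusted p = 0.00116 by limma). The degron acts on the protein, so this mRNA does not check the labels.

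After IAA the transcripts of the cadherin Cdh3 and of the integrins Itga9, Itgb7, Itga3, Itgae, Itgb3, Itgb4 and Itgav were lower, along with Itgb1bp2, while Itga5 and Cdh1 were higher. In poly(A) RNA of a whole culture, fewer cells of a type and less RNA per cell cannot be told apart. Of the 51 members, 24 reached a mean of 10 and were tested. Among these, 9 (37.5%) were called lower and 2 (8.33%) higher, whereas over all genes tested 28.9% were called lower and 11.1% higher. Median-of-ratios factors again gave 9 lower and 2 higher members, against 20.5% and 20.4% of all genes. The median log2 fold change of the 24 members was -0.25 at the deposited scaling and -0.14 with those factors. The groups did not overlap in 13 members that were lower and 3 that were higher, and over all genes tested this held for 45.6% and 22.5%. The authors' deposited table gives an adjusted p for 17 members, and it is under 0.05 for 3 that were lower (Itga3, Cdh3 and Itgb7) and 1 that was higher (Itga5), against 9.57% and 2.47% of its genes. Of the other 7 called members, 6 have an adjusted p there between 0.0693 (Itga9) and 0.352 (Itgae), and Itgb1bp2 has none.

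**Figure D1:**
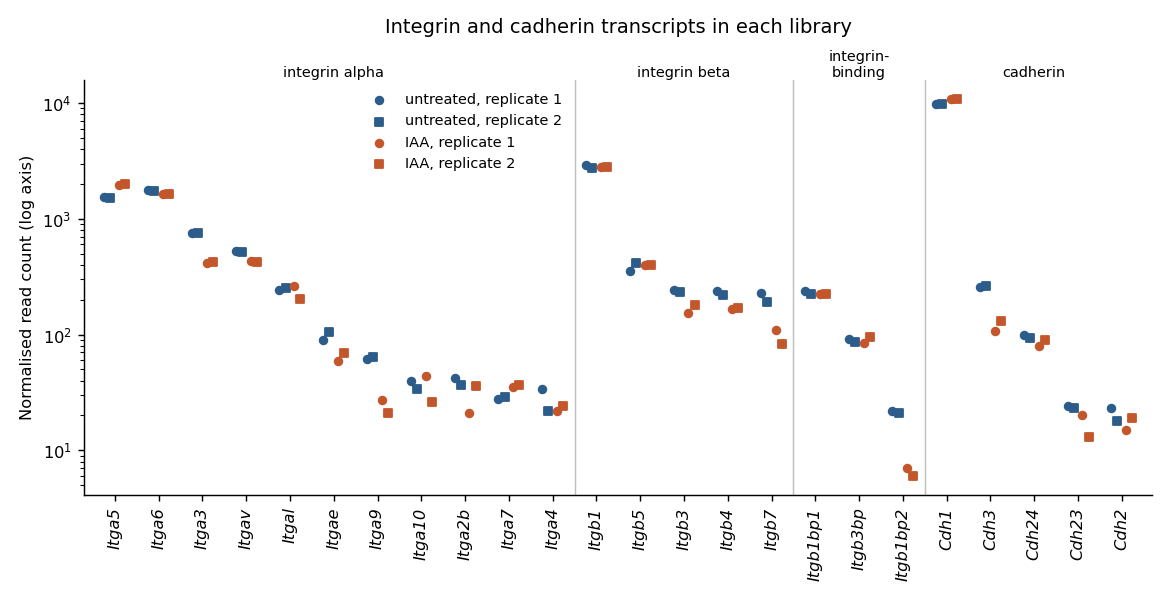
Normalised read counts (log axis) of the 24 tested members in each of the 4 libraries, grouped by family and ordered by mean level; circles are replicate 1 and squares replicate 2. The 2 IAA libraries of Cdh3 (108 and 131) and Itgb7 (110 and 83) lie below both untreated libraries, and those of Itga5 (1965 and 2005) lie above them.

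Windows of 150 bases upstream of the start are shown for 4 integrin genes that the results turn on, 1 that rose (Itga5), the pair that fell with the smallest adjusted p among the integrins (Itga3 and Itgb7), and 1 that did not pass (Itgb1). They are from RefSeq on GRCm38.p6, in which 14 of the 24 tested members have an entry, and are written 5′ to 3′ on the strand of the gene. Where a window would have run into the annotated gene it was moved upstream, by 87 bases for Itga3 and 9 for Itgb7. Capitals mark GGGCGG, the core of the GC box, on either strand (as CCGCCC on the other). The windows are chr15:103366792-103366941 (minus strand), chr11:95076802-95076951 (minus), chr15:102231945-102232094 (minus) and chr8:128685504-128685653 (plus), in the order of the lines.
Itga5: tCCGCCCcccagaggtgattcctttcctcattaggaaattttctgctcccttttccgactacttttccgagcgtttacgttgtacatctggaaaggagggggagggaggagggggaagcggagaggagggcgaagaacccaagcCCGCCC
Itga3: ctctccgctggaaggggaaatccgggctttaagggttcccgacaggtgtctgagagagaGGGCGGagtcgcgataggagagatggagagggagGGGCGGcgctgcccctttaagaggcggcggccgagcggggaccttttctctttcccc
Itgb7: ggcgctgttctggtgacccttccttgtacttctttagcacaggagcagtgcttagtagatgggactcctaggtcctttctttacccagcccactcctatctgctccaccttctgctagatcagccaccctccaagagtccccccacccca
Itgb1: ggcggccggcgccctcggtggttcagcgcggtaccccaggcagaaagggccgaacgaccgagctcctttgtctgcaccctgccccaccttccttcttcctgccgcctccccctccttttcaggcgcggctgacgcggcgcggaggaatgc

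The gene that rose and one that fell, Itga5 and Itga3, each hold 2 GC box cores, which 28.6% of 32851 such windows hold at least once. CCAAT (in 24.5% of windows), TATAAA (7.57%) and CACGTG, an E-box (4.30%), searched on both strands, are in none of the 4. The window of Itgb7 has 1 CG dinucleotide and 55.3% G and C, against 8 and 56.7% for Itga5, 12 and 64.0% for Itga3 and 16 and 70.0% for Itgb1. Medians over all windows were 4 CG dinucleotides and 54.0% G and C. These matches describe letters in the windows and no binding was measured.

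Of the most abundant alpha chains, a fibronectin receptor chain (Itga5) rose and a laminin receptor chain (Itga3) fell. Itga5, whose protein pairs with the beta1 chain to bind fibronectin (chromosome 15, 103344286 to 103366763, GRCm38), stood at 1555 and 1509 normalised read counts without IAA and at 1965 and 2005 with it. Group means were 1532 ± 32.5 and 1985 ± 28.3 (± SD, n = 2 each), a log2 difference of 0.37 (SE 0.05, adjusted p = 2.76e-06 by limma). Both IAA libraries were above both untreated ones, and the size became 0.47 with median-of-ratios factors. Itga3, a laminin receptor chain that also pairs with beta1 (chromosome 11, 95044474 to 95076801), was read at 752 and 747 and then at 419 and 424. Group means were 749.5 ± 3.54 and 421.5 ± 3.54 (± SD, n = 2 each), a log2 difference of -0.83 (SE 0.07, adjusted p = 1.42e-08 by limma). The replicates of Itga3 lay within a few counts of each other in each group. Itga6, the other main laminin receptor chain (chromosome 2, 71745616 to 71858416), had 1789 and 1745 untreated and 1635 and 1624 after IAA (log2 fold change -0.12, SE 0.05, adjusted p = 0.0516 by limma). This did not pass, and was -0.02 with median-of-ratios factors. Itga3 and Itga6 thus gave intervals of -0.97 to -0.69 and of -0.21 to -0.02.

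Other alpha chains that fell were less abundant. Itgav, the chain of vitronectin receptors that bind the RGD motif (chromosome 2, 83724397 to 83806916), had normalised read counts of 531 and 518 and then 434 and 425 (log2 fold change -0.29, SE 0.07, adjusted p = 0.00341 by limma). Itgae, whose protein joins the beta7 chain in a receptor for E-cadherin (chromosome 11, 73090583 to 73147446), had 90 and 106 and then 59 and 69 (log2 fold change -0.61, SE 0.17, adjusted p = 0.00784 by limma). Itga9, a chain for tenascin and related ligands (chromosome 9, 118606690 to 118901003), had 61 and 64 and then 27 and 21 (log2 fold change -1.35, SE 0.24, adjusted p = 0.000129 by limma). The groups did not overlap for any of these 3 genes. Each was also called lower with median-of-ratios factors, at -0.19, -0.50 and -1.27.

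Of the remaining tested alpha chains none passed. Itgal, the alpha chain of the leukocyte receptor LFA-1, had normalised read counts of 244 and 251 and then 263 and 203, and its groups overlapped. Its log2 fold change was -0.10 (interval -0.34 to 0.14). The beta chain it is known to pair with, Itgb2, was read at only 2, 2, 5 and 7. Itga7, a laminin receptor chain best known from muscle, had 28 and 29 and then 35 and 37 (log2 fold change 0.33, interval -0.20 to 0.85). Itga2b, the platelet fibrinogen receptor chain, had 42 and 37 and then 21 and 36 (-0.50, interval -1.08 to 0.07). Itga10, a collagen receptor chain, had 40 and 34 and then 44 and 26 (-0.12, interval -0.68 to 0.44). Itga4, a chain of receptors for VCAM and fibronectin, had 34 and 22 and then 22 and 24 (-0.24, interval -0.86 to 0.38). Intervals this wide hold both no change and changes as large as that of Itgav, for Itga7 only as a rise. At this depth no change and a change of that size could not be told apart. In the annotation, 33.5% of the exon bases of Itga10 are shared with Gm42957 and 8.0% of those of Itga4 with Cerkl on the other strand, and the strand setting of the counting is not given in the sources used here.

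To compare levels between genes, normalised read counts were divided by the kilobases of annotated exon. On this scale Itga5 led the alpha chains, at 311 per kb in the untreated and 402 per kb in the IAA group, followed by Itga6 (196 and 181), Itga3 (131 and 73.8), Itgav (48.8 and 40.0), Itgal (37.7 and 35.5) and Itgae (21.4 per kb untreated). Itga9 (8.13 and 3.12), Itga2b (7.24 and 5.23) and Itga10 (7.13 and 6.75) came next, close enough in the untreated libraries that the latter pair cannot be ranked beyond its spread. Itga5 made up 40.2% and 39.8% of the summed alpha chain level per kb without IAA and 51.6% and 52.7% with it. The share of Itga3 was 16.8% and 17.0% and then 9.50% and 9.62%, and that of Itga6 was 25.3% and 25.1% and then 23.5% and 23.3%. The ratio of Itga5 to Itga3 per kb was 2.39 and 2.34 without IAA and 5.43 and 5.47 with it. Ratios within a library do not depend on its size factor, but a share rises when other members fall.

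**Figure D2:**
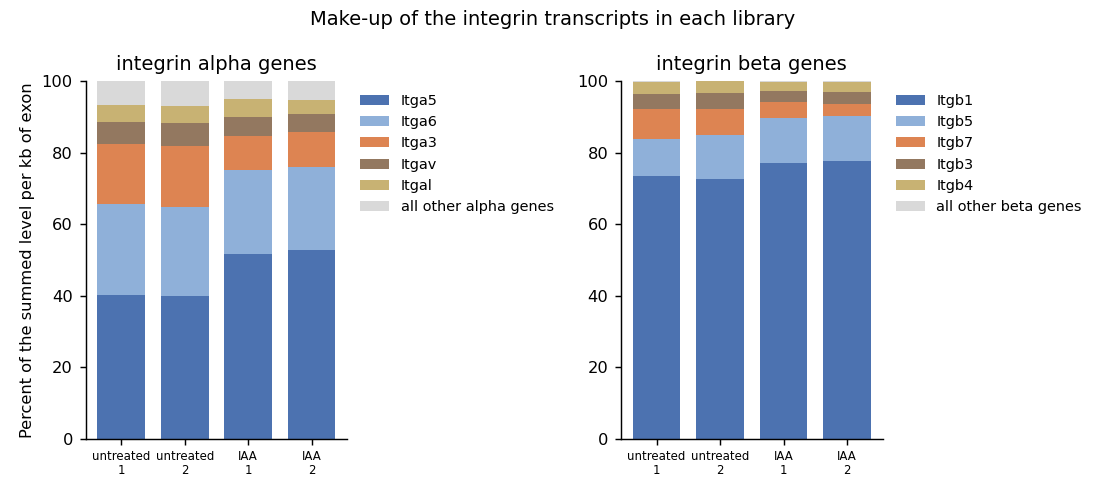
Percent of the summed normalised read count per kb of exon held by single alpha chain genes (left) and beta chain genes (right) in each of the 4 libraries. Itga5 takes 40.2% and 39.8% of the alpha level in the untreated and 51.6% and 52.7% in the IAA libraries, and Itgb1 takes 73.4% and 72.5% and then 77.1% and 77.5% of the beta level.

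The 5 tested beta chains divided into 2 that did not pass and 3 that fell (60.0%, beside 28.9% of all genes tested). Median-of-ratios factors again gave 3 lower, where all genes had 20.5%. With so few genes the share does not describe the family. Itgb1, the partner of most alpha chains above (chromosome 8, 128685654 to 128733200), was by far the most abundant, at 697 and 686 normalised read counts per kb in the untreated and IAA groups. Its normalised read counts were 2916 and 2769 and then 2801 and 2802, so the IAA values lay within the untreated range. The log2 fold change was -0.02 (interval -0.11 to 0.07), and 0.08 with median-of-ratios factors, so its direction turned with the scaling. Itgb5, which pairs with the alpha v chain, had 356 and 414 and then 400 and 398 (0.06, interval -0.12 to 0.23).

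Itgb7, best known from lymphocytes that home to the gut (chromosome 15, 102215995 to 102231944), stood at 227 and 192 normalised read counts untreated and 110 and 83 after IAA. Group means were 209.5 ± 24.7 and 96.5 ± 19.1 (± SD, n = 2 each), a log2 difference of -1.12 (SE 0.14, adjusted p = 4.09e-06 by limma). Itgb3, the other beta chain of vitronectin receptors (chromosome 11, 104608000 to 104670476), had 244 and 234 and then 154 and 180 (log2 fold change -0.52, SE 0.11, adjusted p = 0.000938 by limma). Itgb4, which pairs with the alpha6 chain in hemidesmosomes (chromosome 11, 115974709 to 116008412), had 238 and 220 and then 167 and 171 (log2 fold change -0.44, SE 0.11, adjusted p = 0.00298 by limma). The groups did not overlap for any of the 3. In the authors' deposited table Itgb3 and Itgb4 have adjusted p-values of 0.172 and 0.285.

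The values are set side by side here for chains known to form a receptor, and no difference between chains was tested. Itgae and Itgb7, which form the receptor for E-cadherin, were both lower (-0.61 and -1.12). Itga4, another partner of the beta7 chain, did not pass, and its interval (-0.86 to 0.38) holds the value of Itgae. Itgav and Itgb3 were both lower (-0.29 and -0.52), and Itgb5, which shares the same alpha chain, did not pass (0.06, interval -0.12 to 0.23). Itgb4 fell (-0.44, interval -0.66 to -0.21) and its only known partner, Itga6, did not pass (-0.12), with an interval (-0.21 to -0.02) that meets that of Itgb4. Itga5, Itga3 and Itga9 share the beta1 chain as partner, and had log2 fold changes of 0.37, -0.83 and -1.35 beside -0.02 for Itgb1. These are levels of mRNA, and no receptor at the cell surface was measured.

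Of the genes of integrin-binding proteins only Itgb1bp2 (chromosome X, 101449088 to 101453541), that of melusin, a muscle chaperone, was called. It was read at 22 and 21 and then at 7 and 6 normalised read counts (log2 fold change -1.59, SE 0.40, adjusted p = 0.00321 by limma). That is the lowest value among the 24 tested members, from one of the least abundant. Itgb1bp1, whose protein ICAP-1 binds the beta1 tail, had 236 and 223 and then 223 and 226 (-0.03, interval -0.24 to 0.18). Itgb3bp, which encodes a centromere protein, had 91 and 86 and then 85 and 96 (0.03, interval -0.30 to 0.36). On the other strand, Itgb1bp1 shares 11.4% of its exon bases with Asap2 (mean 251.21) and 5.5% with Cpsf3 (mean 1102.47). Itgb3bp shares 8.6% with Pgm1 (mean 383.57). As the strand setting of the counting is not given, reads of these genes may be among those counted. Without the 3 genes of integrin-binding proteins, 8 of 21 members (38.1%) were lower and 2 (9.52%) higher, beside 28.9% and 11.1% of all genes. Median-of-ratios factors gave the same counts, where all genes had 20.5% and 20.4%.

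**Figure D3:**
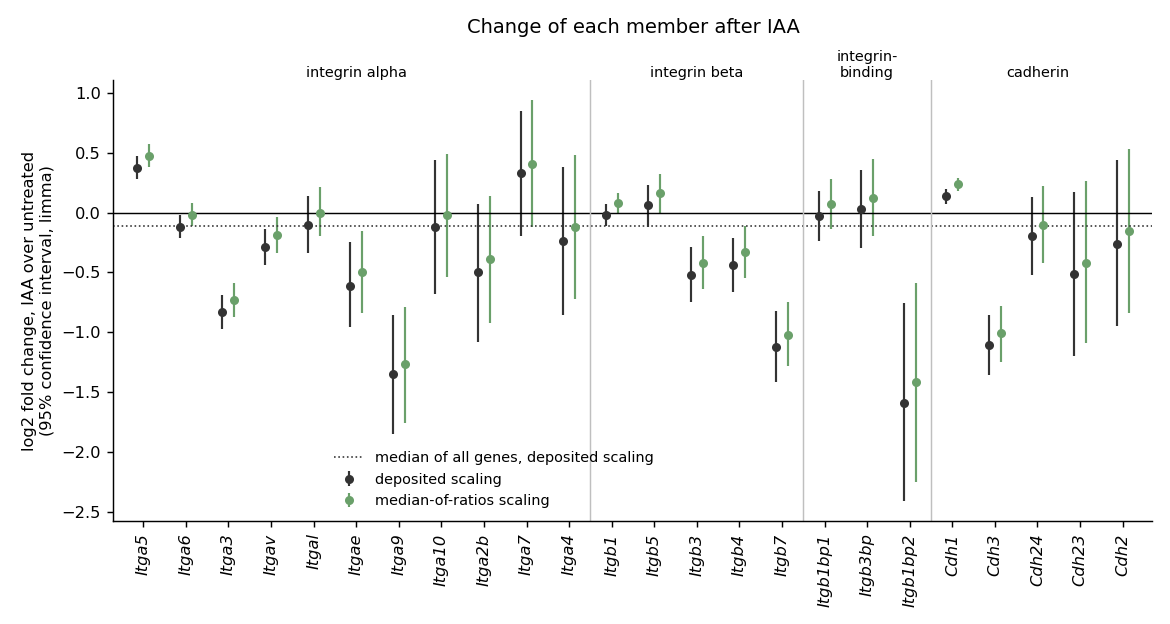
Log2 fold change (IAA over untreated) of the 24 tested members with limma's 95% confidence interval, at the deposited scaling (black) and with median-of-ratios factors (green); the dotted line is the median of all genes tested at the deposited scaling (-0.11). Itga5 (0.37) and Cdh1 (0.14) lie above 0 and Itga3 (-0.83), Itgb7 (-1.12) and Cdh3 (-1.11) below it at both scalings, while Itgb1 goes from -0.02 to 0.08.

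Of the cadherins, E-cadherin mRNA was slightly higher and P-cadherin mRNA fell. Cdh1 (chromosome 8, 106603351 to 106670246, GRCm38) stood at 9901 and 9747 normalised read counts without IAA and at 10738 and 10849 with it. Group means were 9824 ± 109 and 10794 ± 78.5 (± SD, n = 2 each), a rise of 9.87% (log2 fold change 0.14, SE 0.03, adjusted p = 0.00116 by limma). The groups did not overlap, the size became 0.24 with median-of-ratios factors, and the adjusted p in the authors' deposited table is 0.119. Cdh3, P-cadherin, a close relative of E-cadherin found in placenta and basal epithelium (chromosome 8, 106510891 to 106557297), had 256 and 261 and then 108 and 131. Group means were 258.5 ± 3.54 and 119.5 ± 16.3 (± SD, n = 2 each), a log2 difference of -1.11 (SE 0.12, adjusted p = 4.73e-07 by limma). Both IAA libraries were below both untreated ones, and Cdh3 and Itgb7 are the 2 members labelled as down in the authors' deposited table.

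Cdh3 and Cdh1 are neighbours on chromosome 8. Both are transcribed from the plus strand, and 46053 bases lie between the end of Cdh3 and the start of Cdh1. Per kb of exon, Cdh1 was read at 37.1 and 35.8 times the level of Cdh3 without IAA and at 95.3 and 79.4 times with it. Cdh1 held 95.4% and 95.4% of the summed cadherin level per kb before and 97.6% and 97.1% after IAA, and Cdh3 held 2.57% and 2.67% and then 1.02% and 1.22%.

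The other 3 cadherins tested were low and did not pass. Cdh24, a type II cadherin, had normalised read counts of 100 and 94 and then 80 and 89 (-0.20, interval -0.52 to 0.13). Cdh23, whose protein forms the tip links of hair cells in the inner ear, had 24 and 23 and then 20 and 13 (-0.51, interval -1.20 to 0.17). Cdh2, N-cadherin, which takes over from E-cadherin in many mesenchymal and neural cells, had 23 and 18 and then 15 and 19 (-0.26, interval -0.95 to 0.44). At 2.54 and 2.11 normalised read counts per kb in the untreated and IAA groups, Cdh2 stayed far below Cdh1 (2150 and 2360 per kb).

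The remaining 27 members, 16 cadherins, 7 alpha chains and 4 beta chains, were under a mean of 10 and were not tested. None of them exceeded 14 normalised read counts in any library, and 11 had a mean under 1. The highest were Cdh4 (11 and 10 untreated, 4 and 11 after IAA), Cdh22 (14 and 10, then 2 and 9), Itga11 (6 and 3, then 10 and 12), Cdh15 (8 and 10, then 6 and 5) and Itgam (11 and 7, then 7 and 4). Itga11 is a collagen receptor chain of fibroblasts, Cdh15 a muscle cadherin, and Itgam a chain of myeloid cells whose exons are shared with Gm49368 over 68.7% of their bases. The collagen receptor chains Itga1 and Itga2 (means of 2.75 and 1.25), the endothelial cadherin Cdh5 (1.75) and the beta chains Itgb6 and Itgb8 (0.50 and 0.25) were at or near 0. At such counts a change was not detectable.

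**Figure D4:**
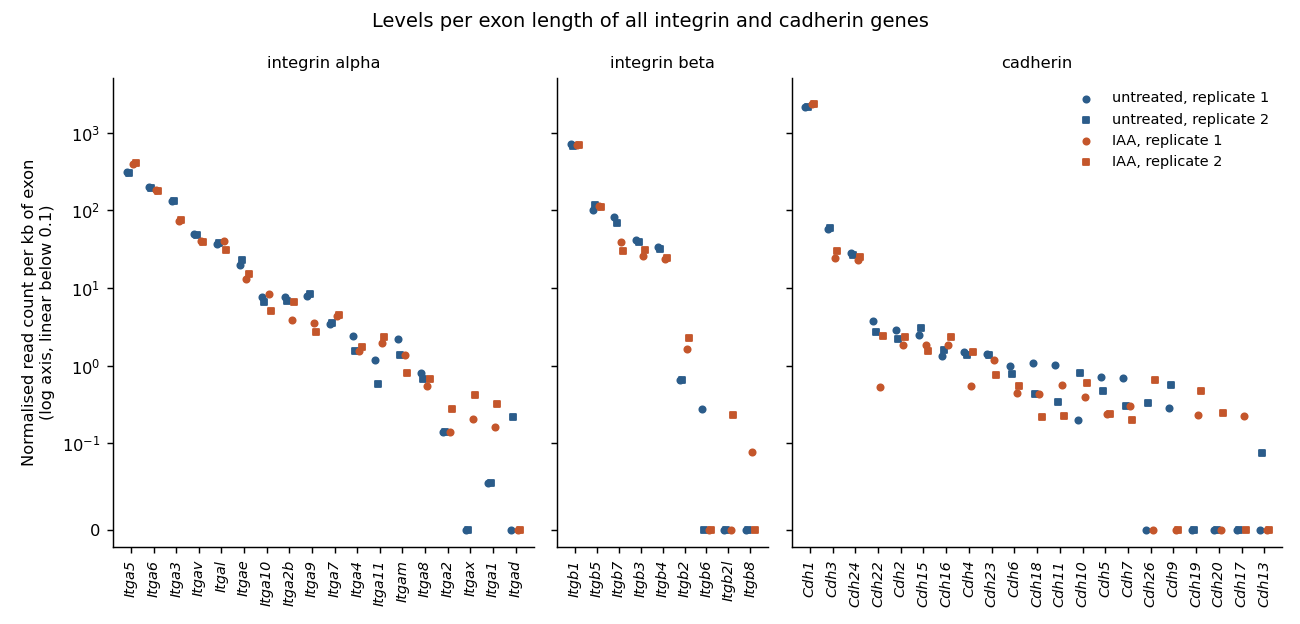
Normalised read count per kb of annotated exon (log axis, linear below 0.1) in each library for all 18 alpha chain, 9 beta chain and 21 cadherin genes, ordered by mean. A single gene leads in the beta chains (Itgb1, 697 and 686 per kb in the untreated and IAA groups) and the cadherins (Cdh1, 2150 and 2360), while the alpha chains are spread over Itga5, Itga6 and Itga3.

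The members called lower lie on chromosomes 2, 8, 9, 11, 15 and X, so they share no single locus. Chromosome 11 holds 5 tested members, of which Itgae, Itga3, Itgb3 and Itgb4 were lower and Itga2b did not pass. Over all genes tested, on any chromosome, 28.9% were lower (20.5% with median-of-ratios factors). The share among all genes of chromosome 11 was not worked out, so these members do not describe that chromosome. On chromosome 15 Itgb7 (lower) and Itga5 (higher) moved in opposite directions. The tested members are longer than most genes, with a median span of 47.0 kb against 20.1 kb over the tested genes with an annotated span. Across the 24 members, log10 span and log2 fold change had a Pearson r of 0.15 and a Spearman rho of 0.09, against -0.07 and -0.05 across 14919 genes. These points share the same 4 libraries and are given as a description.

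Genes that act with integrins were described in 3 lists, to be read against the 28.9% lower and 11.1% higher of all genes tested (20.5% and 20.4% with median-of-ratios factors). Of the 34 tested adaptor and focal adhesion genes, which connect the beta tail to actin, 15 were lower and 2 higher (median-of-ratios factors gave 9 and 7), and the list had a median log2 fold change of -0.16 beside -0.11 for all genes. Parvb, an adaptor that binds integrin-linked kinase, fell most, from 784 and 823 normalised read counts to 456 and 434 (-0.85, SE 0.07; limma adjusted p = 1.03e-08). Tns2, a tensin, went from 93 and 113 to 59 and 63 (-0.74), and Zyx, a focal adhesion protein that responds to tension, from 160 and 175 to 112 and 116 (-0.55). Tln1, talin, which activates integrins, had 2494 and 2479 and then 2151 and 2315 (-0.16), a fall that did not pass with median-of-ratios factors (-0.06). Kindlin-2, Fermt2, had 1485 and 1567 and then 1469 and 1576 and did not pass (interval -0.11 to 0.10; adjusted p = 0.962 by limma). Tln1 and Fermt2 were chosen after their values were seen.

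Ligand genes had the lowest median of the 6 partner lists. Of 24 tested, 15 (62.5%, beside 28.9% of all genes) were lower and none was higher (11.1% of all genes), with a median of -0.33 beside -0.11. Median-of-ratios factors gave 14 lower and 3 higher, where all genes had 20.5% and 20.4%. Col4a2, a collagen IV chain, had normalised read counts of 198 and 141 and then 71 and 85 (-1.10, SE 0.16; limma adjusted p = 2.2e-05). Lama1, the laminin alpha1 chain of the early embryo, had 992 and 1086 and then 557 and 583 (-0.86). Tgfb1, whose latent form is a ligand of alpha v integrins, had 89 and 74 and then 43 and 47 (-0.84). Fn1, the fibronectin that the product of Itga5 binds, had 15074 and 14686 and then 12561 and 12757 (-0.23, SE 0.03; limma adjusted p = 2.51e-06), so ligand and receptor chain moved in opposite directions. Fn1 was chosen after its values were seen, and was also lower with median-of-ratios factors (-0.13).

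Of 12 membrane partners of integrins, 5 (41.7%, beside 28.9% of all genes) were lower and none was higher (11.1% of all genes), and the median was -0.13 beside -0.11. Median-of-ratios factors gave 3 lower and 3 higher, where all genes had 20.5% and 20.4%. Sdc1 and Sdc4, heparan sulphate proteoglycans that act as co-receptors for matrix, had log2 fold changes of -0.52 and -0.36, and Slc3a2, the CD98 heavy chain, which binds beta tails, had -0.26. Sdc1 was read at 455 and 503 and then at 360 and 307, Sdc4 at 538 and 548 and then at 407 and 439, and Slc3a2 at 4797 and 4572 and then at 3916 and 3915. The groups of these 3 genes did not overlap.

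On the cadherin side, catenin and junction plaque genes were mixed. Of 21 tested, 9 (42.9%) were lower and 4 (19.0%) higher, beside 28.9% and 11.1% of all genes. Median-of-ratios factors turned this to 4 and 8, where all genes had 20.5% and 20.4%, and the median was -0.04 beside -0.11. Pkp2, a desmosomal plaque protein, had normalised read counts of 1017 and 1092 and then 555 and 585 (-0.89, SE 0.06; limma adjusted p = 2.69e-09). Ctnnal1, a relative of alpha-catenin, had 636 and 614 and then 392 and 371 (-0.71), and Cbll1, a ubiquitin ligase that acts on E-cadherin, had 293 and 313 and then 389 and 353 (0.29). With a robust prior Cbll1 did not pass without untreated replicate 1 (0.24, adjusted p = 0.0588 by limma) or without IAA replicate 1 (0.22, adjusted p = 0.132 by limma). Ctnnb1, beta-catenin, which binds the E-cadherin tail, had 5302 and 5399 and then 6270 and 6123 (0.21, SE 0.03; limma adjusted p = 5.85e-05). Ctnna1, alpha-catenin, had 5930 and 5970 and then 5814 and 5967 and did not pass (-0.01), but median-of-ratios factors made it higher (0.09). Ctnnb1 and Ctnna1 were chosen after their values were seen.

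Other members of the cadherin superfamily and genes of the epithelial to mesenchymal switch also went in both directions. Of 16 tested superfamily genes 3 (18.8%) were lower and 2 (12.5%) higher (median-of-ratios factors gave 3 and 3; median -0.09), beside 28.9% and 11.1% of all genes. The protocadherins Pcdh1 (83 and 90, then 30 and 39 normalised read counts; -1.31) and Pcdh19 (78 and 100, then 147 and 145; 0.72) moved in opposite directions, and Celsr3, a cadherin of planar polarity, had 180 and 185 and then 100 and 127 (-0.69). Of 21 tested switch genes 6 (28.6%) were lower and 2 (9.52%) higher (median-of-ratios factors gave 6 and 4; median -0.08), shares near the 28.9% and 11.1% of all genes. Esrp1, an epithelial splicing regulator, had 89 and 94 and then 31 and 41 (-1.33, SE 0.20; limma adjusted p = 2.6e-05). The tight junction genes Cldn6 (97 and 128, then 73 and 71) and Ocln (226 and 182, then 131 and 138) were lower too, at -0.62 and -0.59, although Cldn6 did not pass without untreated replicate 2 (-0.43, adjusted p = 0.11 by limma with a robust prior). Cldn4, also of tight junctions, rose from 1213 and 1171 to 1784 and 1663 (0.53, adjusted p = 1.46e-07 by limma). Vim, a mesenchymal gene, fell from 565 and 629 to 394 and 399 (-0.59). Cldn7 (-0.55) and Epcam (-0.37) were also called lower. Snai1, a repressor of Cdh1 named after its values were seen, had 36 and 29 and then 42 and 36 and did not pass (0.26), and its groups met at the same value. Zeb1, of the same list, had 209 and 239 and then 264 and 272 and was called higher (0.26, adjusted p = 0.0449 by limma). With median-of-ratios factors it stood at 0.36. At the deposited scaling its call was close to the threshold. An adjusted p under 0.01 left 1 switch gene higher, and that was not Zeb1. Zeb2 (-0.04) and Twist1 (-0.23) did not pass. Cldn4, Vim, Cldn7, Epcam, Zeb1, Zeb2 and Twist1 were chosen after their values were seen.

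**Figure D5:**
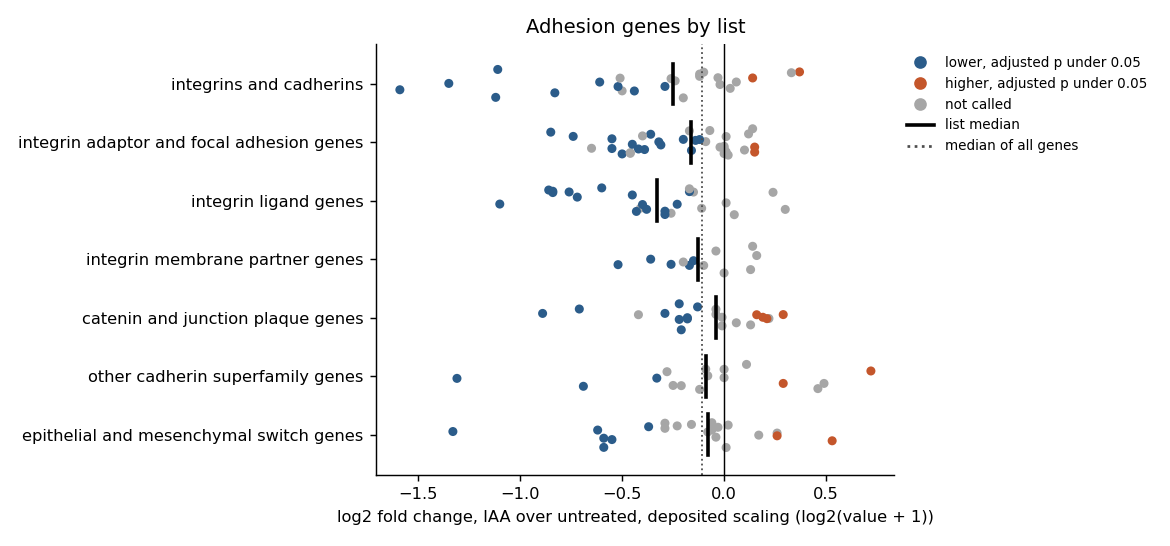
Log2 fold change (IAA over untreated, deposited scaling) of each tested gene in the integrins and cadherins and in 6 lists of partner genes; blue and orange points are genes called lower and higher, grey points were not called, black bars are list medians and the dotted line is the median of all genes (-0.11). The ligand list sits lowest (median -0.33, 15 of 24 lower), and the catenin list straddles 0.

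Summed by cell type, markers of other cells were low beside those of stem cells. Single genes were not always so, as endothelial Pecam1 (mean 1520) was above the stem cell marker Dppa4 (mean 853). Leukocyte and platelet markers (8 of 10 in the table) summed to 195 and 216 normalised read counts in the untreated and 169 and 179 in the IAA libraries. Of these, 4 stayed under 10 in every library, Csf1r and Pf4 among them. The 4 tested were Cd68 (68 and 87, then 63 and 53), Cd3e (48 and 64, then 33 and 59), Gp1ba (41 and 24, then 30 and 34) and Spi1 (22 and 26, then 36 and 28), and none was called. Endothelial markers (7 of 8 in the table) summed to 2381 and 2386 and then 1900 and 1997, most of it Pecam1, and Pecam1 (-0.19), Vwf (-0.61) and Cldn5 (-2.01) were lower. Tek (155 and 139, then 120 and 154), Tie1 (28 and 25, then 22 and 17) and Kdr (20 and 15, then 7 and 13) were not called, and Erg did not exceed 2. At the deposited scaling 3 of the 6 tested were thus lower, beside 28.9% of all genes. With median-of-ratios factors Pecam1 was not called (-0.09), which left 2 of the 6 tested lower, where all genes had 20.5%. Feeder fibroblast markers (7 of 10 in the table) summed to 462 and 531 and then 393 and 400, with Thy1 (-0.78) and Col1a1 (-0.76) lower. Pdgfrb (234 and 253, then 232 and 223) and Pdgfra (34 and 31, then 42 and 41) were not called, and Col3a1 was at no more than 2. Primitive endoderm markers (10 of 10) summed to 284 and 250 and then 242 and 268, with none called. Trophoblast markers (8 of 8) summed to 705 and 698 and then 762 and 735, most of it Tfap2c (503 and 487, then 511 and 495), which was not called. Eomes (176 and 186, then 228 and 215) was called higher (0.29), and 5 of the 8 stayed under 10 in every library. The part of such cells in the changes of Itgb7, Itgae, Itgb3 and Itga9 was not tested.

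The calls rest on 2 libraries per group and several on low counts. With no filter on low values only Itga3 and Itga5 remained called, and without any 1 of the 4 libraries limma's ordinary prior left 0 calls, whereas a robust prior kept all but Itgae, which was lost without untreated replicate 2 (adjusted p = 0.0766 by limma).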

How the data were processed

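Poly(A) RNA was sequenced from 2 untreated and 2 IAA libraries, grouped by their titles. The analysis rests on 1 table (30282 genes). Tools listed in the submitters' processing notes, with no role given, are DESeq2, featureCounts, STAR, Bowtie2, cutadapt 1.18, SAMtools and deepTools; builds are dm6 and mm10. Library columns hold deposited scores, which the values show to be counts scaled by size factors of 0.88, 0.87, 0.98 and 0.95 and then rounded. The deposited mean is a signal, unrounded, and gave back whole reads for 100% of genes (tolerance 0.001). Whether the factors come from mouse or Drosophila spike-in reads is not given in the sources used here. Fold changes on the log2 scale, with standard errors, Wald scores and p-values (raw and adjusted), are the authors' DESeq2 output, per the file's name.

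For the 14928 genes with a mean of at least 10 (15354 had less), limma 3.58.1 (R 4.3.3) was fitted to log2(value + 1) with its mean-variance trend and Benjamini-Hochberg adjustment over all of them, and calls were made below an adjusted p of 0.05. The fit was also run on simulated counts, with changes set only in genes of a mean of at least 100 and the same spread setting for all genes. That run does not cover calls at lower counts. The members and lists were chosen with earlier results of these data known. Named are all tested members, the 5 highest of the others, and per partner list the 3 called genes with the largest change, and any other gene is said to be chosen after its values were seen or stands as a marker or as an example of the members under the filter. Exon lengths, overlaps and coordinates are those of GENCODE M21 on GRCm38 (mm10), and all 51 members matched by ID and symbol. The length of an exon union can exceed that of the mRNA. Replicate numbers did not pair the libraries. Alternatives were thresholds, filters, pseudocounts, scalings, voom on recovered reads, the authors' test, a replicate block and leaving out each library.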

Additional observations from a re-analysis of the deposited data

How the results depend on the processing

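The 9 members lower and 2 higher became 1 and 1 with no filter (817 genes called in all, against 5962) and 3 and 1 in the authors' deposited test (1384 genes in all). The cause was not tested. Leaving out each library gave 0 to 10 members lower, 0 to 2 higher and 0 to 5361 genes called in all. The values of 0 came from limma's ordinary prior, whose degrees of freedom were between 1.55 and 1.59, against 18 with all libraries. In these fits 2.42% to 2.49% of genes have equal rounded values in the only pair left, and whether that lowers the prior was not tested. With a robust prior, chosen after seeing the data, the same fits gave 9 to 10 members lower, 2 higher and 4795 to 5361 genes in all, with Itgae lost without untreated replicate 2 and Itga2b (-0.88) gained without IAA replicate 2. Itga6 was called lower at an adjusted p under 0.1, with a mean of at least 100, with voom and with a robust prior. With the replicate number as a block 9 members were lower, 2 higher and 5958 genes called in all. Deviations of same-numbered libraries correlated at -0.065, so the block has no ground in the data. Signs turned only for members that were not called: Itgb1 (0.08 with median-of-ratios factors, 0.08 with library totals, 0.02 without untreated replicate 1, range over left-out libraries -0.06 to 0.02), Itgb1bp1 (0.07, 0.07 and 0.01 in the same settings, down to -0.07 without untreated replicate 2), Itgal (0.00, 0.01, and 0.09 without IAA replicate 2, down to -0.28 without IAA replicate 1), Itga10 (0.25 without IAA replicate 2, -0.49 without IAA replicate 1), Itga4 and Itgb5 (0.06 and -0.05 without untreated replicate 1, -0.55 and 0.16 without untreated replicate 2) and Itgb3bp (-0.01 without untreated and -0.06 without IAA replicate 2, 0.12 without IAA replicate 1). Over the 24 members and 18 partner genes named by rule, 630 of 817 values kept direction and call, 159 lost and 6 gained a call and 22 turned sign. Members under a mean of 10 were too shallow for a test.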
